A study of Homo sapiens with 2 samples.

Results

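The genes described here are 36 genes of glucose use and of the cellular response to low oxygen, taken from a listed set and split into 20 genes of glycolysis and 16 other genes that hypoxia induces. They are 36 of the 20045 genes that the platform annotation assigns to at least 1 probe of the array. The cells compared were HCT116 cells given SB590885, an inhibitor of RAF kinases, at 10 nM, and HCT116 cells given vehicle. Each condition had 1 array. HCT116 is a human colorectal carcinoma cell line that the labels give as p53+/+, and both groups came from this 1 line grown in the same medium. The labels name no low-oxygen culture and no treatment time.

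Glycolysis converts glucose to pyruvate in the cytosol, and lactate dehydrogenase then interconverts pyruvate and lactate. Hypoxia-inducible factors (HIFs) are transcription factors that prolyl hydroxylases mark for degradation when oxygen is present; when oxygen is low they bind a short DNA element, the hypoxia response element, and raise the transcription of most glycolytic genes along with genes of vessel growth, mitophagy and collagen modification. RAF, MEK and ERK signalling and MYC are known to raise glycolytic gene expression in colorectal carcinoma cells as well.

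No difference below has a replicate, so no test and no p-value for a difference was computed, and each ratio compares 1 array with 1 array. Intensities are the authors' normalized values on a linear scale. A probe counted as detected when its detection p, given for each array, was under 0.01 on either array, and where a gene had several detected probes the brightest over both arrays was used. On the SB590885 array 35.3% of 47318 probes were detected, against 33.7% on the vehicle array, and 10430 genes were detected in all. The only repeated measurement is that of different probes for 1 gene. Over 2295 genes the log2 ratios of the 2 brightest detected probes differed with an SD of 0.25, and they had the same sign in 64.7% of genes. Where the dimmer of these probes was at 500 or more (461 genes) that SD was 0.30. Most ratios below are smaller than these SDs, which are those of a difference between 2 probes. For a single probe the corresponding SD is 0.177 over all these genes and 0.212 at 500 or more. Probes of 1 gene read the same RNA on each array, so none of these SDs holds the spread between samples. Of 12 colorectal epithelial markers EPCAM, KRT8, KRT18, KRT19, CDH1, CDX2 and CLDN7 were detected on both arrays and CLDN3 on the SB590885 array only, while KRT20, VIL1, CDX1 and LGALS4 were not detected. CLDN7, a tight junction claudin, was at 1063 after SB590885 and 699 with vehicle (1.52-fold higher), the only one of them past 1.5-fold. EPCAM was 1.46-fold higher by its brightest probe, but its other 2 detected probes had log2 ratios of -0.12 and 0.11. KRT8 was lowest, at a log2 ratio of -0.22. Of 14 markers of other cell types, CD68, COL1A1 and ALB were detected on both arrays and COL1A2, DCN and HBA1 on 1 array only, with ratios from -0.16 (HBA1) to 0.24 (DCN) and none past 1.5-fold. The other 8, PTPRC, PECAM1 and HBB among them, were not detected.

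All 20 glycolysis genes were detected on both arrays. Of the 16 other hypoxia-induced genes, 12 were detected on both arrays, MXI1 on the vehicle array only, and EGLN3, PDK1 and LOX on neither. At 1.5-fold or more, 3 of the 33 detected genes were higher after SB590885 (ENO2, NDRG1 and P4HA2) and 1 was lower (P4HA1). Among all detected genes 1.51% were at least 1.5-fold higher and 1.16% lower. At a looser limit of 0.32 on the log2 scale 4 members were higher (PFKL is added) and 5 lower (SLC2A1, PGAM1, PGK1 and BHLHE40 are added), where 7.12% and 6.99% of all detected genes were. At 2-fold no member was called in either direction, where 0.249% of all detected genes were higher and 0.134% lower.

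The glycolysis genes were evenly split, with 10 higher and 10 lower log2 ratios (SB590885 over vehicle) from -0.50 to 0.70 and a median of 0.00. Their interquartile range was -0.09 to 0.21, against -0.14 to 0.13 for all detected genes. The median of the 13 detected hypoxia-induced genes was -0.04, with 5 higher and 8 lower, and the median of all detected genes was -0.001. In bulk RNA, fewer cells with a transcript and less of it in each cell cannot be told apart.

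**Figure D1:**
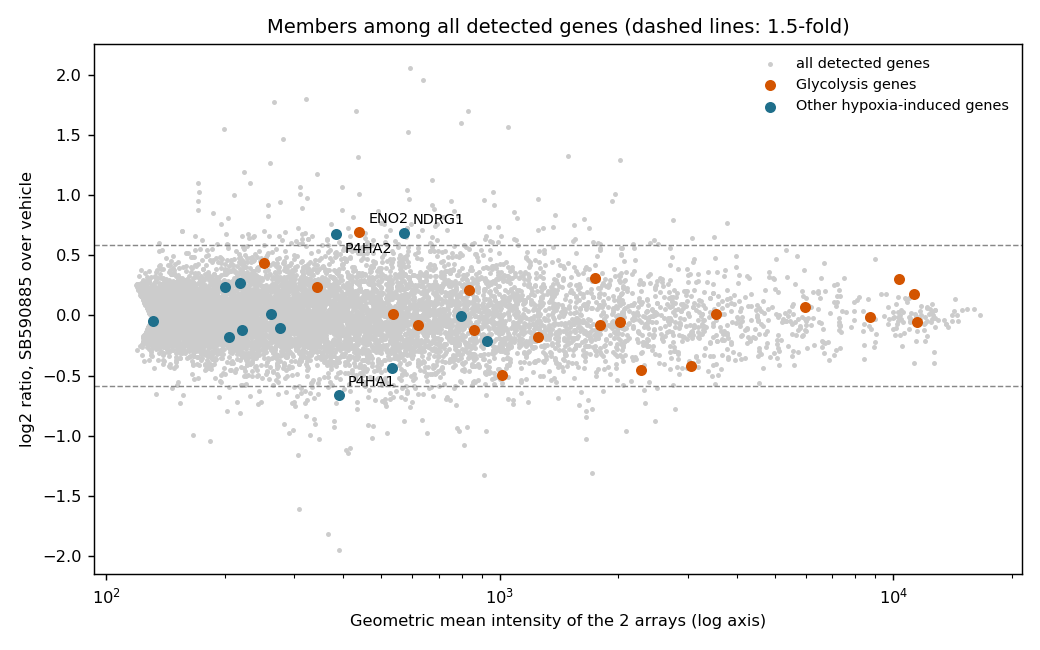
Log2 ratio of SB590885 over vehicle against the geometric mean intensity of both arrays (log axis) for all 10430 detected genes in grey, glycolysis genes in orange and other hypoxia-induced genes in blue. ENO2, NDRG1 and P4HA2 lie above the upper dashed 1.5-fold line, P4HA1 lies below the lower one, and the other 29 members lie between the lines.

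SLC2A1, which encodes the glucose transporter GLUT1, had the lowest ratio of the glycolysis genes. Its intensity was 851 after SB590885 and 1200.0 with vehicle, a log2 ratio of -0.50 or 1.41-fold lower. Hexokinase traps glucose in the cell as glucose 6-phosphate. HK1, the hexokinase found in most tissues, was at 1173 after SB590885 and 1329.5 with vehicle (log2 ratio -0.18). HK2, the inducible isozyme and a HIF target, was at 602 after SB590885 and 637 with vehicle (-0.08), and its second probe gave -0.12. GPI, the isomerase that follows, was at 1744 after SB590885 and 1843 with vehicle (-0.08). All 4 genes of these first steps were lower, and of these 4 only SLC2A1 passed the looser limit of 0.32.

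Phosphofructokinase commits hexose to glycolysis, and its 3 subunit genes did not move as 1. PFKL, the liver-type subunit, was at 293 after SB590885 and 217 with vehicle, which is 1.35-fold higher. PFKM, the muscle-type subunit, was at 899.7 after SB590885 and 779 with vehicle (log2 ratio 0.21). PFKP, the platelet-type subunit, was at 1980.4 after SB590885 and 2053 with vehicle (-0.05). PFKFB3 and PFKFB4 make and remove fructose 2,6-bisphosphate, the activator of phosphofructokinase, and both are known HIF targets. PFKFB3 was at 825 after SB590885 and 895 with vehicle (-0.12), with a second probe at -0.002. PFKFB4 was at 373 after SB590885 and 317 with vehicle (0.23), so this pair of isozymes had opposite signs, each within 0.32.

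The aldolases, which split the 6-carbon sugar, were near their vehicle levels. ALDOA was at 3571 after SB590885 and 3534 with vehicle, and ALDOC at 539.5 after SB590885 and 534 with vehicle, with log2 ratios of 0.02 and 0.01. The triose phosphate isomerase gene TPI1 was at 8701 after SB590885 and 8780.0 with vehicle (-0.01), and its second probe gave -0.28. GAPDH, the dehydrogenase of the pathway and a frequent reference gene, was at 11424 after SB590885 and 9288 with vehicle, 1.23-fold higher. Its other 2 probes read 0.10 and -0.12, so its direction depends on the probe.

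PGK1 and PGAM1, the kinase and the mutase of adjacent steps, were lower by every detected probe. PGK1 was at 2646 after SB590885 and 3538 with vehicle, 1.34-fold lower, and its second probe was at 630.5 after SB590885 and 785 with vehicle (log2 ratio -0.32). PGAM1 was at 1953 after SB590885 and 2675 with vehicle, 1.37-fold lower, and its second probe was at 761 after SB590885 and 960.4 with vehicle (-0.34). With SLC2A1 they are the 3 glycolysis genes lower by at least 0.32 on the log2 scale.

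The enolase genes diverged. ENO2, the neuron-type enolase and a known HIF target, was at 559.6 after SB590885 and 346 with vehicle, 1.62-fold higher, the highest ratio of the 33 members. ENO1, the enolase of most tissues, was at 11234 after SB590885 and 11678 with vehicle, a log2 ratio of -0.06. Each of these genes has 1 probe, so neither ratio was repeated. The 20 detected genes that flank ENO2 on chromosome 12, TPI1 among them, had a median log2 ratio of 0.16, with 3 of 20 lower. The part of this in the ENO2 ratio was not tested. The promoter windows of both genes are shown because the pair differed most among the glycolytic isozymes. They are RefSeq sequences on GRCh38.p14, 250 bases before to 50 after the start, written 5′ to 3′ on the strand of the gene, with capitals for ACGTG or GCGTG on either strand, the core letters of the hypoxia response element.
ENO2, chr12:6914330-6914629, plus strand: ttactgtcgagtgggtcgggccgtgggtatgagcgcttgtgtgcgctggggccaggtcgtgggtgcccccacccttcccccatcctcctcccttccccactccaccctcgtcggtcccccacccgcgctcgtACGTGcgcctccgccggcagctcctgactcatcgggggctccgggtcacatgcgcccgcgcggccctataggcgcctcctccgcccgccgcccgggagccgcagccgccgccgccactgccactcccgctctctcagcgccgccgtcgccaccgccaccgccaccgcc
ENO1, chr1:8878637-8878936, minus strand: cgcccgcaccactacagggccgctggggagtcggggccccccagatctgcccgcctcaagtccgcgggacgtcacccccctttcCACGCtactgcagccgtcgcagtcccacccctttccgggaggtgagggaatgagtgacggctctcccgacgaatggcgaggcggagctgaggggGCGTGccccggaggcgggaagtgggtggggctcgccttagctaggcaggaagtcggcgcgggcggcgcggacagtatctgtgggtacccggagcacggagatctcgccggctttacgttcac
ENO2 has 1 core, an ACGTG, and ENO1 has 2, neither of them ACGTG.

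PKM, which encodes the pyruvate kinases of most tissues, was higher by all 3 of its probes. The probe used was at 1949 after SB590885 and 1567 with vehicle (1.24-fold higher), and the other 2 had log2 ratios of 0.15 and 0.09. LDHA, the lactate dehydrogenase subunit that HIF induces, was at 11982 after SB590885 and 10606 with vehicle (0.18), but its other 2 probes read -0.11 and -0.27. The LDHA probe at -0.27 was dim, at 159 after SB590885 and 192 with vehicle. LDHB, the heart-type subunit, was at 6089.6 after SB590885 and 5803 with vehicle (0.07). GAPDH, LDHA, PGK1, ENO1, TPI1 and PGAM1 have processed pseudogenes, so a probe may also bind transcripts of near-identical copies. The array data cannot separate these.

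**Figure D2:**
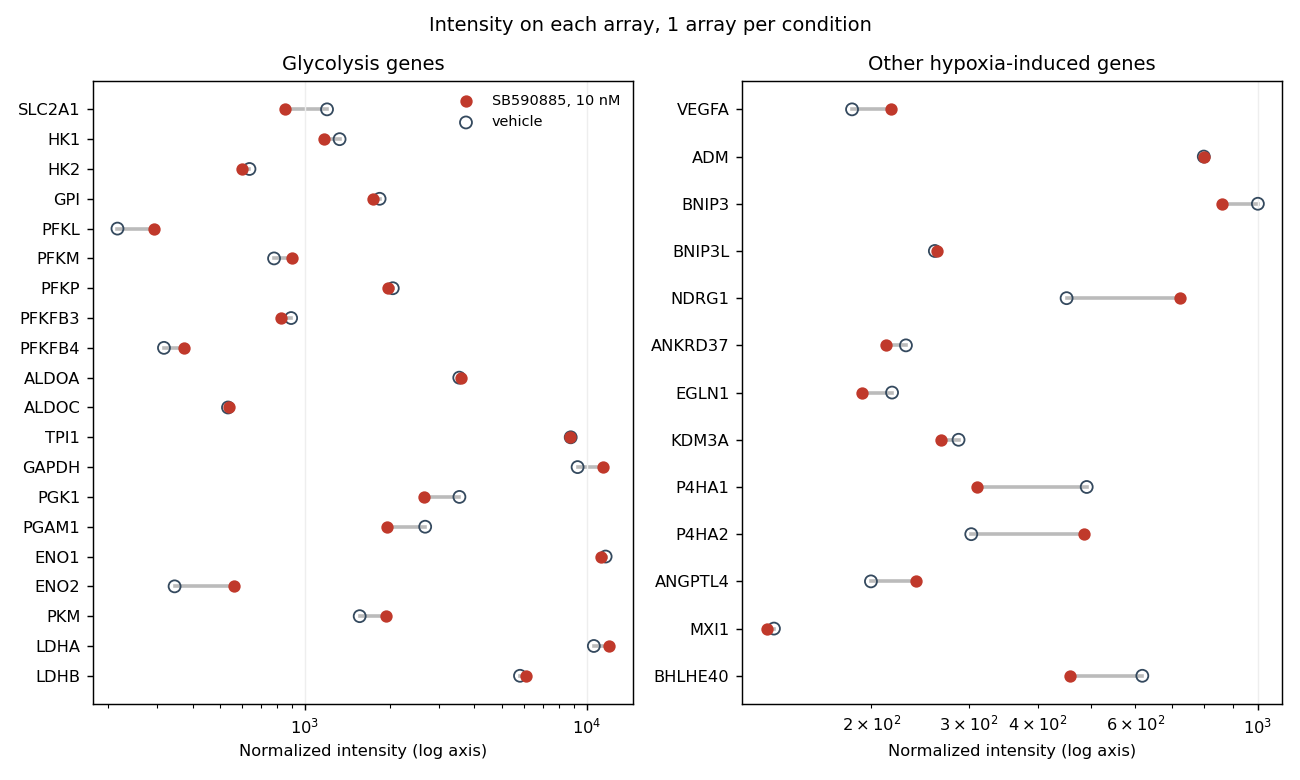
Normalized intensity (log axis) of the probe used for each detected gene, with SB590885 as filled red points and vehicle as open points, 1 array each, glycolysis genes on the left and other hypoxia-induced genes on the right. The widest gaps are those of ENO2 (559.6 after SB590885, 346 with vehicle), NDRG1 (724 after SB590885, 451 with vehicle), P4HA2 (486 after SB590885, 303 with vehicle) and P4HA1 (311 after SB590885, 490.5 with vehicle); intensities of different genes are not comparable.

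Among hypoxia-induced genes with secreted products the ratios were small. VEGFA, the main vessel growth factor, was at 217 after SB590885 and 185 with vehicle (log2 ratio 0.23), and a second detected probe was at 138 after SB590885 and 137 with vehicle (0.01). ANGPTL4, a secreted inhibitor of lipoprotein lipase, was at 241 after SB590885 and 199.8 with vehicle (1.20-fold higher), and its second probe was at 151 after SB590885 and 147 with vehicle (0.04). ADM, the vasodilator adrenomedullin, read 798 on both arrays. The second probes of VEGFA and ANGPTL4 lay close to the limit of detection, which was 129.8 on the SB590885 array and 132.2 on the vehicle array.

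NDRG1, a stress-responsive gene that hypoxia strongly induces, was at 724 after SB590885 and 451 with vehicle, 1.61-fold higher. It has 1 probe, and its 20 flanking genes on chromosome 8 had a median of -0.04. BNIP3 and BNIP3L encode related mitophagy receptors of the outer mitochondrial membrane. BNIP3 was at 862 after SB590885 and 1000.1 with vehicle (-0.21), and BNIP3L was at 263 after SB590885 and 261 with vehicle (0.01), with a second probe at 0.004. ANKRD37, an ankyrin repeat gene induced by HIF, was at 212 after SB590885 and 231 with vehicle (-0.12).

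Enzymes that use oxygen as a substrate, and the metabolic kinase PDK1, follow. EGLN1 encodes the prolyl hydroxylase PHD2, which marks HIF for degradation, and was at 193 after SB590885 and 218 with vehicle (-0.18). EGLN3, the hypoxia-induced PHD3, was at 107 after SB590885 and 103 with vehicle, not detected on either array. KDM3A, a histone demethylase, was at 267 after SB590885 and 288 with vehicle (-0.11). PDK1, the kinase that restrains pyruvate dehydrogenase, was at 109 after SB590885 and 114 with vehicle, and LOX, which crosslinks collagen, at 114 on both; neither was detected. The lowest detection p of these 3 undetected genes was 0.386, while MXI1 was just inside the limit at 0.0078 on the vehicle array.

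Among the paralogous pairs of the set the widest split was between P4HA1 and P4HA2, the alternative catalytic subunits of the prolyl 4-hydroxylase that hydroxylates collagen. P4HA2 was at 486 after SB590885 and 303 with vehicle, 1.60-fold higher, and its second detected probe was at 280.1 after SB590885 and 160.0 with vehicle (log2 ratio 0.81). P4HA1 was at 311 after SB590885 and 490.5 with vehicle, 1.58-fold lower, and its second probe was not detected. Both genes are known HIF targets, yet on these arrays 1 was higher and 1 lower. P4HA2 is the only one of the 4 genes past 1.5-fold with more than 1 detected probe. The 20 genes flanking P4HA2 on chromosome 5 had a median of 0.03, and those flanking P4HA1 on chromosome 10 had -0.07 with 14 of 20 lower. Their promoter windows are shown for that divergence, with the same capitals.
P4HA2, chr5:132227042-132227341, minus strand: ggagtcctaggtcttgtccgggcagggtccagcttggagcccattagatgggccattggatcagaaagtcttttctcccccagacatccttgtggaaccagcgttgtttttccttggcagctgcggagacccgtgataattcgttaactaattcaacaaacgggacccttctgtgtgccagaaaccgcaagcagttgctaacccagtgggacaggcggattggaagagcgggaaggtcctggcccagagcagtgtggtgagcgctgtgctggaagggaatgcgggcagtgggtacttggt
P4HA1, chr10:73096817-73097116, minus strand: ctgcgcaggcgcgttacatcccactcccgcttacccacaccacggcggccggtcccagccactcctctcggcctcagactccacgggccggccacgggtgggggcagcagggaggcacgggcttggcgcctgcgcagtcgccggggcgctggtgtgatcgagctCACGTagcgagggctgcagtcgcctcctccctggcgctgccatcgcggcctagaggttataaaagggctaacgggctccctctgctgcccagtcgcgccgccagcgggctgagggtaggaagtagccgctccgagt
P4HA1 has 1 core, an ACGTG on the other strand, and in the P4HA2 window these letters do not occur. Only 1 window per gene was examined, so cores near any other start would be missed.

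The transcription factors of the set were lower or near detection. BHLHE40, a basic helix-loop-helix repressor also tied to the circadian clock, was at 458 after SB590885 and 618 with vehicle, 1.35-fold lower, with 1 probe. MXI1, an antagonist of MYC, was at 129 after SB590885, where it was not detected, and 133 with vehicle, which is at least 1.028-fold lower. MXI1 supplies the median of the class; with detection required on both arrays that median was -0.05.

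**Figure D3:**
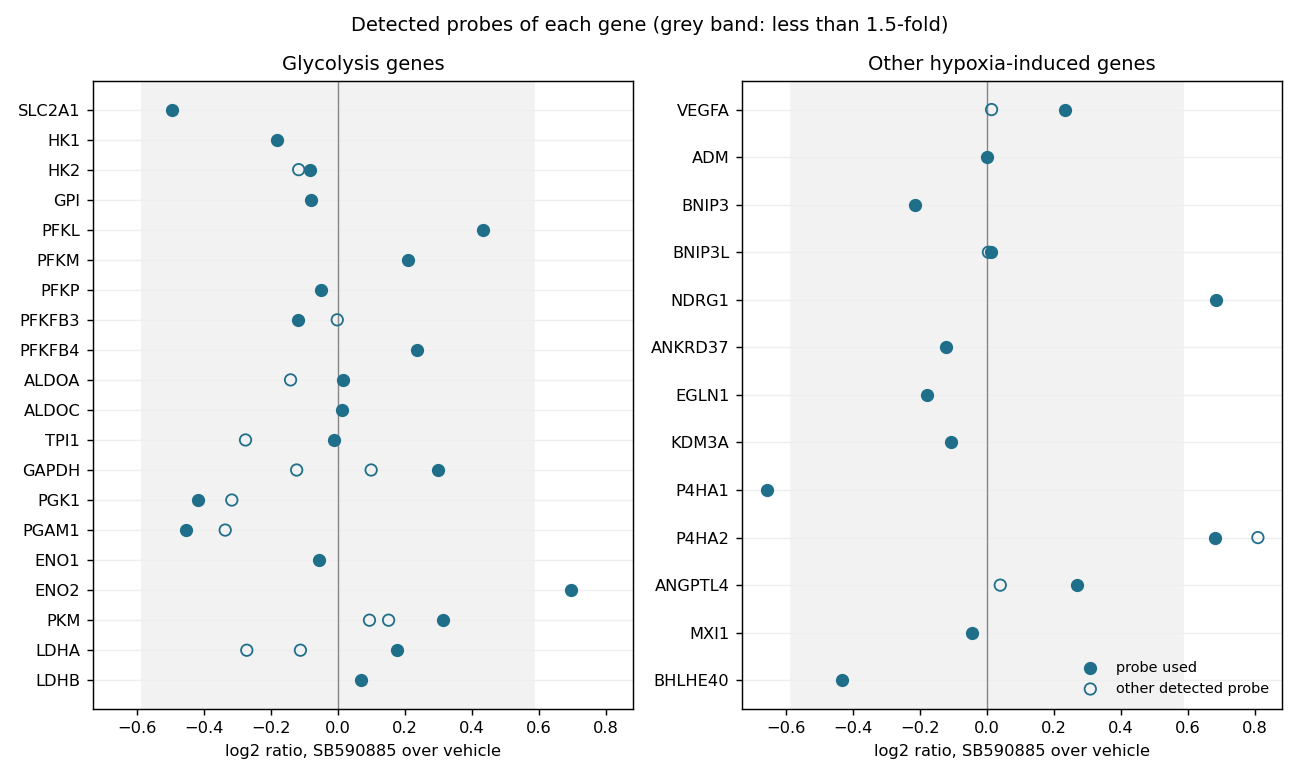
Log2 ratio of SB590885 over vehicle for every detected probe, with the probe used for each gene filled and other detected probes open; the grey band marks less than 1.5-fold. Both P4HA2 probes lie right of the band (0.68 and 0.81), the PGK1 and PGAM1 probes all lie left of 0, and the GAPDH, LDHA and ALDOA probes fall on both sides of 0.

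Of the 33 detected members 13 have several detected probes. In 10 of these all probes had 1 sign, and in ALDOA, GAPDH and LDHA they did not. The widest spread was that of LDHA, from -0.27 to 0.18. It rests on a dim probe (-0.27), at 159 after SB590885 and 192 with vehicle. The brighter LDHA probes read 0.18 and -0.11. The next widest spread was that of GAPDH, from -0.12 to 0.30. These spreads are as large as the ratios of most members.

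The deposited values keep their background, near 112.4 on the SB590885 array and 112.5 on the vehicle array, which compresses ratios of dim genes. With that background corrected (limma's neqc) no member changed sign. ENO2 was then 1.86-fold, P4HA2 1.89-fold and NDRG1 1.77-fold higher, and P4HA1 1.84-fold lower. PFKL joined those past 1.5-fold, at 1.64-fold higher. The counts became 4 higher and 1 lower of 33, where 5.16% and 4.63% of all detected genes passed. VEGFA was then 1.37-fold and ANGPTL4 1.40-fold higher, SLC2A1 1.46-fold and BHLHE40 1.45-fold lower, and the median of the hypoxia-induced genes was -0.16.

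**Figure D4:**
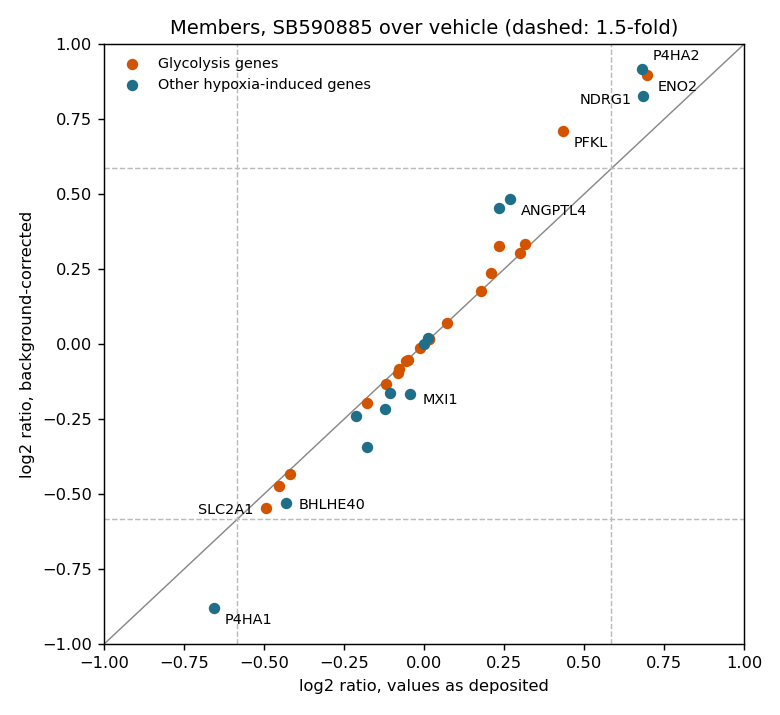
Log2 ratio of SB590885 over vehicle for each detected member with background correction (vertical axis) against the value as deposited (horizontal axis); the line marks equality and dashed lines 1.5-fold. Points off the line are the dimmer genes, and PFKL is the only member that crosses the threshold, at 0.43 as deposited and 0.71 corrected.

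Promoter windows were examined for 33 of the 36 members, a different 33 from the detected ones. Chromosome 8 was left out beforehand, which removed NDRG1 and BNIP3L, and no window was held for VEGFA. Of these 16 (48.5%) hold ACGTG on either strand within 300 bases, against 26.9% of 8426 windows of detected genes and 21.4% of all 27305 windows, chromosome 8 left out. With GCGTG included, 25 members (75.8%) hold at least 1 core, against 63.5% of windows of detected genes and 47.8% of all windows. The members' windows have a median GC content of 68.0%, those of detected genes 65.3% and all windows 58.0%; the part of GC content in these shares was not tested. Members with the same core differed in direction: P4HA1 (log2 ratio -0.66), BHLHE40 (-0.43) and PGK1 (-0.42) hold ACGTG, and so do ENO2 (0.70), GAPDH (0.30) and ANGPTL4 (0.27). These are ratios of the probe used. The other GAPDH probes read 0.10 and -0.12, and the second detected ANGPTL4 probe 0.04. A match is a description of letters and not evidence of binding. The 1 window per gene was taken by coordinate and not by the start in use in these cells.

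By position, looked at after the values were seen, the members on chromosome 10 were alike in direction. All 7 detected there were lower after SB590885: P4HA1 (-0.66), PGAM1 (-0.45), BNIP3 (-0.21), HK1 (-0.18), PFKFB3 (-0.12), PFKP (-0.05) and MXI1 (-0.04). Of these 7 only P4HA1 and PGAM1 were lower by at least 0.32. Of the 399 other detected genes on chromosome 10, 56.4% were lower, with a median of -0.035. On chromosome 12, 4 of 5 members were higher, ENO2, GAPDH (by the probe used), PFKM and LDHB, while TPI1 was at -0.01. The 546 other genes there were split, with 52.6% lower and a median of -0.01. Closer by, the 20 genes flanking GAPDH had a median of 0.13 (5 lower) and those flanking TPI1 0.16 (4 lower). Those flanking PFKM had -0.07 (12 lower) and those flanking LDHB -0.06 (14 lower). Flanking genes can include other members, and the sets of members that lie close together overlap. ENO2, at 0.70, was the highest of the genes flanking TPI1, so these medians are not separate measures. The part of chromosome position in these ratios was not tested.

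**Figure D5:**
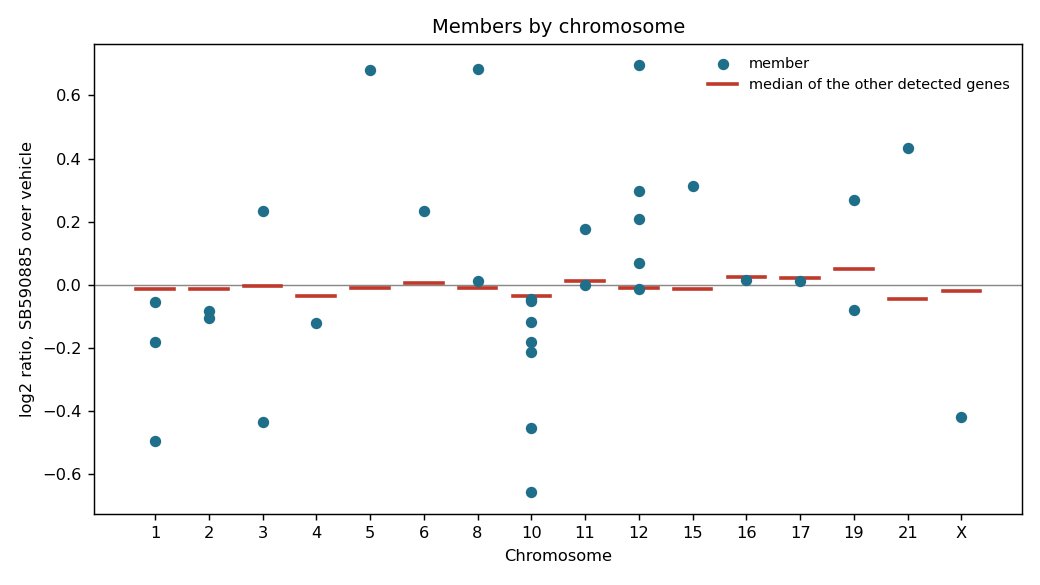
Log2 ratio of SB590885 over vehicle for each detected member (points), by chromosome, with the median of the other detected genes of that chromosome as a red bar. All 7 members on chromosome 10 lie below 0, while the medians of other genes stay between -0.044 and 0.049.

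Other genes of the same pathways were also split in direction. The lists overlap: SLC2A3 and PGM1 count both as further HIF targets and as other glycolysis genes. CITED2 counts both as a further HIF target and among the oxygen-sensing genes. Of 29 detected further HIF targets, 13 were higher and 16 lower, with a median of -0.10. At 1.5-fold or more, where 1.51% of all detected genes were higher and 1.16% lower, 1 of the 29 was called. This was PLOD2, a lysyl hydroxylase of collagen, at 494 after SB590885 and 776 with vehicle (1.57-fold lower). Its second detected probe gave -0.02 but was dim, at 154 after SB590885 and 156 with vehicle. AK4, an adenylate kinase, had 4 detected probes. The brightest was at -0.08, and the others were at -0.25, -0.70 (1.62-fold lower) and 0.01. With background correction 3 of the 29 passed 1.5-fold, where 5.16% of all detected genes were higher and 4.63% lower. PLOD2 (1.71-fold) and RIOK3, a protein kinase (1.51-fold), were lower, and the second RIOK3 probe gave a corrected log2 ratio of -0.21. CITED2, a repressor of HIF activity, was 1.78-fold higher. Of 13 other genes of glycolysis and gluconeogenesis 6 were higher and 7 lower (median -0.07), from PGM2, a phosphopentomutase, at -0.29 to ENO3, the muscle-type enolase, at 0.37. None passed 1.5-fold as deposited, and ENO3 did with background correction (1.55-fold higher). Among 15 detected HIF subunits and oxygen-sensing genes 7 were higher and 8 lower, and none passed 1.5-fold as deposited. With background correction ARNT2, a partner subunit of HIF, was 1.79-fold higher, and CITED2 was higher as given above. ARNT2 was at 163 after SB590885 and 134 with vehicle, only 1.22-fold higher as deposited. Its vehicle intensity was close to the limit of detection on that array, 132.2. HIF1A itself was at 349 after SB590885 and 319 with vehicle (0.13), EPAS1, which encodes HIF-2 alpha, at 355 after SB590885 and 375 with vehicle (-0.08), and VHL, the recognition subunit of the ligase that degrades HIF, at 202 after SB590885 and 206 with vehicle (-0.03). The range ran from CREBBP, a coactivator, at -0.36 to ELOB, a VHL partner, at 0.56, and the second ELOB probe gave -0.17. ELOC, the other elongin partner of VHL, was at -0.09 by its brightest probe and 1.78-fold higher by its second.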

How the data were processed

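RNA of 2 samples was measured on Illumina bead arrays, 1 for SB590885 and 1 for vehicle; biotinylated cRNA was made with the Ambion MessageAmp kit, per the labels' protocols. No source used here names the array software or the normalization. The authors deposited intensity values and, beside them, a detection p-value per probe and array. Their normalized table equals the series matrix, and the other table, deposited under the name non-normalized, holds every value, detection values included, multiplied by 1.025, so it holds no raw signal. After sorting, the largest gap between the arrays' intensities is 0.129.

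Log2 ratios were computed from the normalized intensities with Python 3.11.15, pandas 2.3.3 and numpy 2.4.6. Probes were named through the platform annotation, which gives 1 gene for 30111 of 47318 probes, with symbols updated by RefSeq's GRCh38.p14 annotation. The array files name no build, so that annotation gave only names, chromosomes and neighbours (up to 10 detected genes on each side). For counts past a threshold, a gene detected on 1 array only was taken at a bound: on the array without detection its intensity was replaced by the lowest detected intensity there, unless its own was higher. Counts of higher and lower genes, medians and ranges use the measured ratios. Background correction used limma 3.58.1 (neqc, offset 16, R 4.3.3). The number of arrays limits the precision.

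All 36 members are accounted for. Outside them, genes past 1.5-fold or else the highest and lowest of each list were to be named, with HIF1A, EPAS1, VHL, AK4, ELOC and EPCAM added after their values were seen. The members and lists were chosen with earlier results of these data known. Alternatives covered background, scaling, source table, detection filter, probe rule, threshold and mean against median.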

Additional observations from a re-analysis of the deposited data

How the results depend on the processing

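ENO2, NDRG1 and P4HA2 were higher and P4HA1 lower by at least 1.5-fold under all 10 alternatives that recomputed ratios, and PFKL joined them with both background corrections. The threshold decided the counts: at 2-fold 0 members were higher and 0 lower, and at 0.32 on the log2 scale 4 were higher and 5 lower. The medians ran from -0.06 to 0.03 for glycolysis genes and from -0.18 to 0.01 for hypoxia-induced genes, the mean in place of the median included. With the mean over detected probes ALDOA and LDHA changed sign, both within 0.32 of 0; no other alternative changed a sign. The series matrix and the table deposited as non-normalized hold the same values up to a factor, so they could not move a ratio. Nor could the detection filters move ENO2, NDRG1, P4HA1 or P4HA2, whose brightest probes were detected on both arrays. The mean over detected probes could move only P4HA2 among them, since each of the others has 1 detected probe. No paired analysis was possible because each condition had 1 array.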

Other observations

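None of the detected genes of the pathways that glycolysis feeds passed 1.5-fold as deposited. At 0.32 on the log2 scale 0 of 8 genes of the pentose phosphate pathway were higher and 3 lower, 2 of 15 of the tricarboxylic acid cycle were higher and 3 lower, and 2 of 14 of pyruvate and lactate handling were higher and 3 lower, where 7.12% of all detected genes were higher and 6.99% lower. Of 8 detected genes of the pentose phosphate pathway, which makes NADPH and ribose 5-phosphate, 6 were lower, with a median log2 ratio of -0.12, from PRPS2, a phosphoribosyl pyrophosphate synthetase, at -0.49 (second probe -0.30) to PGLS, the lactonase, at 0.21. Of 15 detected genes of the tricarboxylic acid cycle 7 were higher and 8 lower (median -0.11). The highest was SDHA, the flavoprotein subunit of succinate dehydrogenase, at 1037 after SB590885 and 742 with vehicle (1.40-fold higher, second probe 0.43). The lowest was IDH3A, a subunit of isocitrate dehydrogenase, at -0.42. SDHD, a membrane anchor of succinate dehydrogenase, was also at -0.42, so subunits of 1 enzyme had opposite signs.

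Of 14 detected genes of pyruvate and lactate handling 6 were higher and 8 lower (median -0.04). DLD, the dihydrolipoamide dehydrogenase shared by several mitochondrial complexes, was lowest at 656 after SB590885 and 959 with vehicle (1.46-fold lower). PDP1, the phosphatase that activates pyruvate dehydrogenase, was highest at 1037 after SB590885 and 728 with vehicle (1.42-fold higher), and PDK3, a kinase that opposes it, was at 295 after SB590885 and 217 with vehicle (0.44) with a second probe at 0.29. With background correction DLD was lower and PDK3 and OGDH, a subunit of the oxoglutarate dehydrogenase complex, were higher by at least 1.5-fold. Of all detected genes 4.63% were then lower and 5.16% higher by that much. PDK3 and SDHD were named after their values were seen.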
